A study of Mus musculus with 6 samples.

Results

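Zfp genes code for zinc finger proteins, and the 188 described here were chosen by their RNA-seq counts. A gene was taken when its symbol was Zfp followed by a number, when it was counted on its own, and when its counts on exons reached 200 in the sum of both RNA-seq libraries. Of the 23698 genes listed, 356 had such a symbol, and 188 of these reached 200 counts. The RNA-seq levels of the members are therefore a description. Translational efficiency has these RNA-seq counts in its denominator, so it is also given as a description, with no test.

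The libraries came from primary mouse keratinocytes of postnatal day 0 back skin and had been through 10 to 15 passages in culture. All of them carried the HrasG12V oncogene together with a knockout of the floxed TGF-β receptor gene Tgfbr2 (Tgfbr2 fl/fl KO), a cultured model of squamous cell carcinoma called SCC. From this 1 genotype, an established line, 2 RNA-seq libraries and 1 of ribosome profiling were used, and wild-type cells were not analysed here. The paper also lists other ribosome profiling libraries of squamous cell carcinoma cells, which were not used here. In ribosome profiling, the stretches of mRNA under ribosomes are sequenced as footprints. RNA-seq gives the level of each mRNA.

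Ribosome profiling had 3549555 counts on exons. RNA-seq had 10707930 in replicate 1 and 14003713 in replicate 2. The 188 Zfp genes held 0.770% of the exon counts of replicate 1 and 0.731% of those of replicate 2. They held 0.333% of the footprints on coding sequences (CDS), which were 10642 of 3198469 footprints. This share is of the CDS and those of RNA-seq are of exons. On the CDS, the members had 43522 of 7207264 RNA-seq counts in replicate 1 and 56129 of 9625093 in replicate 2. The median Zfp gene had 34.5 footprints on its CDS, against 108 over all 9199 genes with a counted CDS and the same 200 RNA-seq counts. Fewer than 10 footprints were found on 24 Zfp genes and at least 100 on 27, so counting error is wide for most members.

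Keratinocyte markers were abundant, and markers of other cells of the skin were low. All 9 keratinocyte markers were above 1 RPKM (counts scaled to the counted length and to the exon counts of the library), and their summed level was 16028 RPKM in replicate 1, 18203 in replicate 2 and 11785 in footprints. Krt5, a keratin of basal keratinocytes, was the most abundant, at 7965 and 9483 RPKM in the RNA-seq libraries. The 8 fibroblast markers summed to 10.3 and 16 RPKM, led by Col3a1 at 3.89 and 5.49 RPKM, and the collagen genes Col1a1, Col1a2 and Col3a1 had 0 footprints on the CDS. The 5 melanocyte markers summed to 5.46 and 5.65 RPKM, of which Pmel made up 5.03 and 5.19. The 5 immune markers summed to 1.09 and 3.62 RPKM, led by Cd74 at 0.950 and 3.24, with Cd3e and Cd207 at 0 in both libraries. The 3 endothelial markers summed to 0.505 and 0.591 RPKM.

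Most Zfp proteins are DNA-binding factors built from C2H2 fingers, short folds in which a pair of cysteines and a pair of histidines hold a zinc ion. Many carry a KRAB A box at their amino end, which binds the corepressor Trim28 and brings histone methylation and heterochromatin to the bound DNA, often at transposable elements. The Zfp36 proteins are an exception in name, since their CCCH fingers bind AU-rich elements in mRNA and lead to deadenylation and decay. In the proteins translated from the annotated CDS (GENCODE M21, GRCm38), all 188 members had a match, 1 of them through a synonym. A KRAB A box was found in 80 members and was not found in 108. At least 10 C2H2 fingers were present in 86 members, 3 to 9 in 79, 1 or 2 in 13 and none in 10. The 10 without a C2H2 match included Zfp36, Zfp36l1 and Zfp36l2, the only members with CCCH fingers. A SCAN box, a domain through which such proteins pair, was found in 4 members.

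The sequence that joins neighbouring C2H2 fingers is conserved, and it is shown because it makes the Zfp coding sequences alike. A histidine, the linker threonine-glycine-glutamate-lysine-proline and a tyrosine or phenylalanine occurred 569 times in 114 members, 72 with a KRAB A box and 42 without. These 569 sites used 324 different sequences of 21 bases. Of the sites, 78.2% had a sequence that was also present in the CDS of at least 1 other gene among 21504 searched. The sequence cacACTGGAGAGAAGCCCtat was found in 10 members and in 20 genes in all, and catACTGGAGAGAAACCTtac in 9 members and 32 genes. Capitals mark the bases that code for the linker. The first such site of 9 members described later is given here on the coding strand, with its bases counted from 1 at the start codon.
Zfp871, chromosome 17, CDS bases 727 to 747: cacACGGGGGAGAAACCGtac
Zfp266, chromosome 9, CDS bases 1261 to 1281: cacACTGGGGAAAAGCCTtac
Zfp146, chromosome 7, CDS bases 280 to 300: cacACTGGAGAGAAACCTttt
Zfp740, chromosome 15, CDS bases 328 to 348: cacACTGGTGAGAAACCAttt
Zfp652, chromosome 11, CDS bases 1300 to 1320: cacACTGGAGAGAAGCCTttc
Zfp180, chromosome 7, CDS bases 1018 to 1038: cacACAGGGGAAAAGCCCtac
Zfp637, chromosome 6, CDS bases 418 to 438: cacACAGGAGAGAAGCCCtat
Zfp74, chromosome 7, CDS bases 769 to 789: cacACTGGGGAGAAGCCGtat
Zfp672, chromosome 11, CDS bases 754 to 774: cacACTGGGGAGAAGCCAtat
The sequences of Zfp871 and Zfp652 were found in 1 gene each, that of Zfp637 in 8 genes and that of Zfp266 in 5 genes.

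Sharing reached beyond the linkers. At least 1 window of 30 bases of the CDS was also present in another gene for 91 members, 65 of the 80 with a KRAB A box and 26 of the 108 without. The share of such windows was above 20% in 13 members, with a median log2 translational efficiency of 0.36. How reads that match several genes were counted is not given in the sources used here, so the values of these 13 genes are uncertain. They include Zfp781 (100%), Zfp937 (61.0%) and Zfp442 (44.7%), with values above 1, and Zfp524 (57.4%) and Zfp93 (26.8%), with values below -1. These genes are outside the rule for named genes and were chosen after their values were seen.

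Zfp mRNAs were mostly of low abundance in SCC. The median Zfp gene was at 7.58 RPKM in RNA-seq replicate 1 and 7.04 in replicate 2, against 16.99 and 16.76 over all genes with 200 counts. In bulk RNA, fewer cells with a transcript and less of it per cell cannot be told apart. The mean of both libraries ran from 1.06 RPKM to 136 RPKM, and 23 of 188 members were above 20 RPKM. Zfp36l2 was the most abundant, at 143 and 128 RPKM, and alone made up 6.56% and 6.20% of the members' RNA-seq counts. It was followed by Zfp207 at 44.3 and 42.0 RPKM, which codes for a protein that binds spindle microtubules and kinetochores. Zfp36 was at 34.7 and 43.3 RPKM, Zfp740 at 38.0 and 36.2, Zfp36l1 at 38.4 and 34.8, and Zfp146 at 36.1 and 34.2. Zfp36 stood above Zfp207 in replicate 2, and the order of the genes after Zfp36l2 is not resolved by these libraries. Zfp genes with a KRAB A box had a median of 4.96 RPKM and those without one 9.29 RPKM over both libraries.

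**Figure D1:**
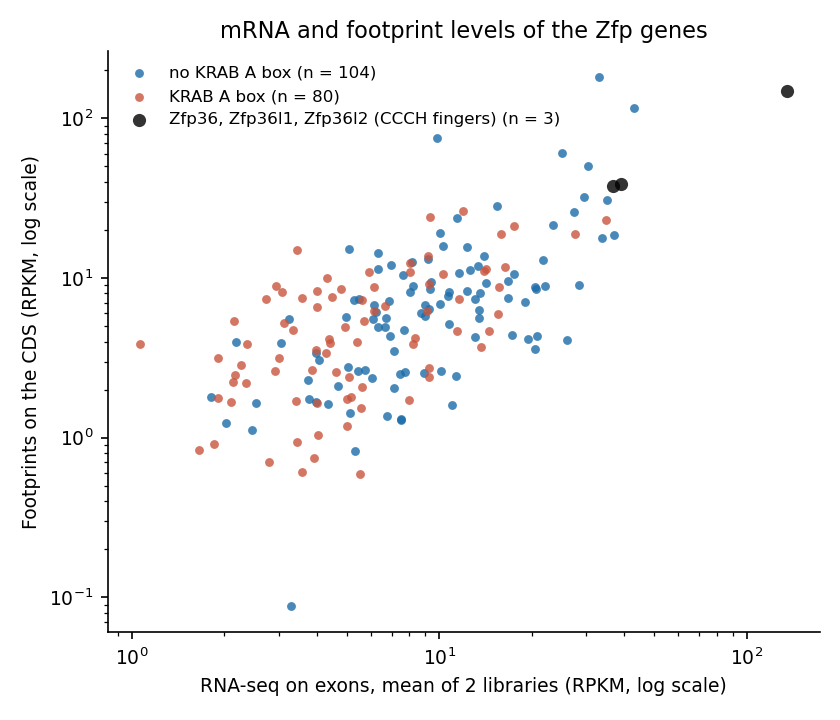
RNA-seq level on exons (mean of the 2 libraries) against footprint level on the CDS, both in RPKM on log scales, for the 187 Zfp genes with a footprint. Each point is a gene. Zfp36l2 lies at the far right, and the points with a KRAB A box lie further to the left, with a median of 4.96 RPKM against 9.29 RPKM for the others.

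The threshold of 200 counts divided genes of like values. Just inside it were Zfp341 with 85.2 and 117 counts, Zfp324 with 75.7 and 127, and Zfp369 with 90.6 and 113 counts in replicates 1 and 2. Just outside were Zfp738 with 98.6 and 98.5 counts, Zfp874a with 102.5 and 93.2, and Zfp617 with 99.8 and 94.1. The 168 Zfp genes under the threshold included 50 with fewer than 10 counts in the sum and 23 with none in either library. Of the 191 Zfp genes with a KRAB A box, 41.9% reached 200 counts, and of the 161 without one 67.1% did. No usable transcript was found for 4 genes under the threshold.

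Translational efficiency (TE) was the log2 ratio of a gene's footprint RPKM in its CDS to its exon RPKM averaged over the RNA-seq replicates. The median of the 9862 genes that passed the filters on low values was set to 0. Those filters were more than 1 RPKM in each RNA-seq replicate, a mean normalized count above 25, and a footprint count above 0 on a counted CDS. All but 2 of the 188 members passed them. The exceptions were Zfp385c, with 0 footprints, and Zfp781, below 1 RPKM in replicate 1. Both were kept in the counts below, Zfp385c at the value that 3 footprints would give, the limit that a count of 0 allows. This limit bounds the upper side alone, and the interval used for the other genes would reach 3.69 footprints.

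The members had fewer footprints for their mRNA than the typical gene with 200 counts. Their median log2 TE was -0.76, against -0.04 over all 9199 genes with 200 counts. It was -0.76 against replicate 1 alone and -0.73 against replicate 2 alone. For the 145 Zfp genes with some RNA-seq counts but under 200, the median was at most 0.02, since genes without footprints were taken at their upper limit. It was -0.25 and -0.15 against replicates 1 and 2 in those with footprints. TE was below -1 in 77 of 188 members (41.0%), against 21.7% of all genes. It was above 1 in 10 members (5.32%), against 19.3% of all genes, and in 3 members when counts were not divided by length, against 17.7%. For single genes the SD of log2 TE over the RNA-seq replicates was 0.13 at the median. The 95% counting interval of the footprints (exact Poisson) was 0.95 wide at the median of the 164 members with 10 or more footprints. That interval lay wholly below -1 for 44 of 188 members, against 1236 of 9199 genes (13.4%). It lay wholly above 1 for 3 of 188 members, against 1363 of 9199 genes (14.8%). Fewer footprints widen the interval, and the median was 34.5 footprints in the members and 108 over all genes, so these shares are not at like depth. Intervals cover counting error only, since copies of a read made by PCR are not independent molecules. When only genes with 100 counts in every library were used, 27 members remained with a median of -0.45, of which 6 were below -1 (22.2%, against 15.7% of all genes so filtered). That filter selects on footprints, the numerator of TE. It also moved the median that is set to 0 by 0.39, so -0.45 and -0.76 are not on the same scale.

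**Figure D2:**
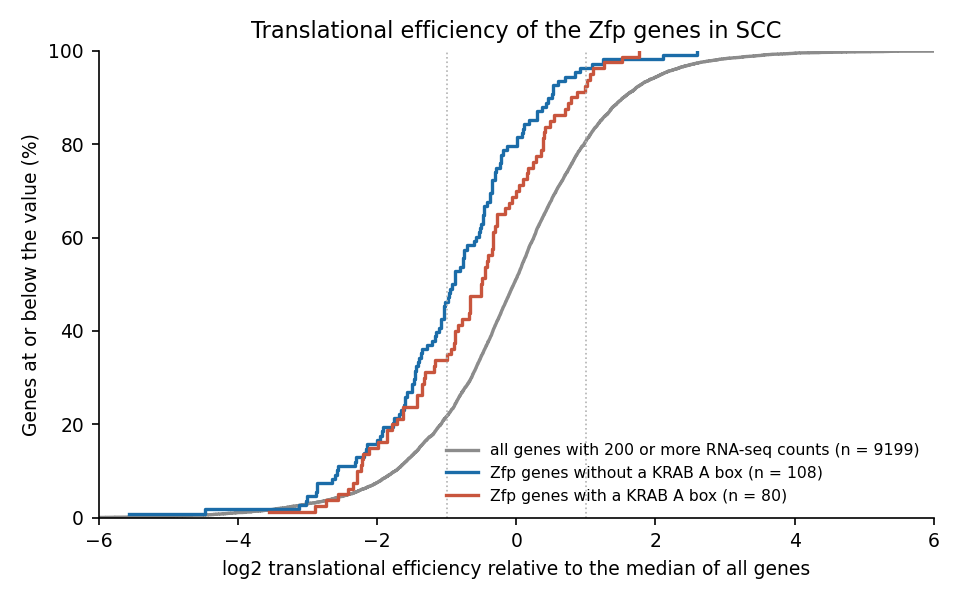
Cumulative share of genes (%) by log2 translational efficiency relative to the median of all genes, for all genes with 200 or more RNA-seq counts and for the Zfp genes with and without a KRAB A box. Dotted lines stand at -1 and 1. At -1 the KRAB curve stands at 33.8% and that of the other Zfp genes at 46.3%, against 21.7% of all genes.

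Coding length differed between the Zfp genes and the others, and TE was lower in genes with a longer CDS. The median counted CDS was 1714 nt in the members and 1397 nt over all genes. Across genes, Spearman's rho between log2 TE and counted CDS length was -0.16 over 187 members and -0.43 over 9130 genes, points that share the same 3 libraries and whose TE has this length in its denominator. The values were therefore set side by side within classes of CDS length. Between 1000 and 2000 nt, 103 members had a median log2 TE of -0.66, against -0.07 over 3357 genes. Between 2000 and 3000 nt, 38 members were at -0.73, against -0.42 over 1497 genes. From 3000 nt upward, 22 members were at -1.34, against -0.77 over 1356 genes, and 15 of them were below -1 (68.2%, against 41.6% of all genes of that length). Below 1000 nt, 25 members were at -0.47, against 0.62 over 2989 genes. In each of the 4 classes the Zfp median lay under that of all genes.

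Among the 57 members with at least 1000 RNA-seq counts, the highest TE was that of Zfp706, at 2.11 (counting interval 1.87 to 2.35). Zfp706 codes for a protein of 76 residues with 1 C2H2 finger and spans 36997027 to 37007773 of chromosome 15 (- strand). It had 146 footprints on 228 nt of CDS and 1612 and 1972 RNA-seq counts, mostly on its 3′UTR of 3912 nt, and its value was -1.15 when counts were not divided by length and 1.15 with RNA-seq taken from the CDS. Zfp207 followed at 1.09 (0.97 to 1.21) with 614 footprints, but at 0.63 with RNA-seq taken from the CDS and 0.82 when counts were not divided by length. Next was Zfp871 at 1.02 (0.78 to 1.24) with 157. Zfp871 is a KRAB gene with 15 fingers, and its value was -0.53 when counts were not divided by length and 1.96 with RNA-seq taken from the CDS. Of its 10850 exon nt, 8858 are 3′UTR. The order of Zfp706, Zfp871 and Zfp36l2 (1.82) thus depended on the region in which RNA-seq was counted. Zfp622, which codes for a factor that acts late in the maturation of the large ribosomal subunit, was at 0.92 (0.75 to 1.08) with 305 footprints. Zfp266, another KRAB gene, was at 0.79 (0.56 to 1.01), and at 0.01 when counts were not divided by length. Zfp191, a SCAN gene needed for myelination by oligodendrocytes and now named Zfp24, was at 0.52 (0.24 to 0.79). The neighbours Zfp207, Zfp871 and Zfp622 had overlapping intervals. Below 1000 counts the highest value of all members was that of Zfp593, at 2.6 (2.31 to 2.87), with 108 footprints and 10.5 and 9.24 RPKM in RNA-seq. It codes for a small nuclear protein with 1 finger that takes part in making the large ribosomal subunit, and it was chosen after its value was seen.

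The lowest TE among the 57 members was that of Zfp385c, which had 494 and 670 RNA-seq counts on exons but 0 footprints on 1287 nt of CDS. All of these RNA-seq counts lay on its 3′UTR, and the CDS held 0 counts in both RNA-seq libraries, so the value of at most -4.47 says little about translation of this CDS. Zfp692 was the lowest of the 57 with footprints, at -3.0 (-3.66 to -2.42). It had 23.1 footprints against 539 and 708 RNA-seq counts, spans 58307069 to 58314627 of chromosome 11 (+ strand), and had 99.4% of its annotated CDS counted. Zfp219 was at -2.86 (-3.47 to -2.30) with 26.0 footprints. Zfp652 was at -2.6 (-3.22 to -2.05), Zfp362 at -2.58 (-3.32 to -1.93) and Zfp180 at -2.56 (-3.46 to -1.80). The intervals of Zfp692, Zfp219, Zfp652, Zfp362 and Zfp180 overlapped, so their order is not resolved at this depth. Without division by length Zfp692 was at -2.29, above Zfp180 (-2.93), Zfp362 (-2.77) and Zfp219 (-2.54). Zfp386 (-5.28) and Zfp740 (-3.32), also among the 57, were lower still under that setting. With division by length, the intervals of Zfp692, Zfp219, Zfp652, Zfp362 and Zfp180 all lay wholly below -1. None of these 5 had a KRAB A box, which 11 of the 57 members had. Below 1000 counts, Zfp651, Zfp251, Zfp358 and Zfp523 had lower values than Zfp692, from -5.57 to -3.03, each with fewer than 10 footprints. They were chosen after their values were seen.

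**Figure D3:**
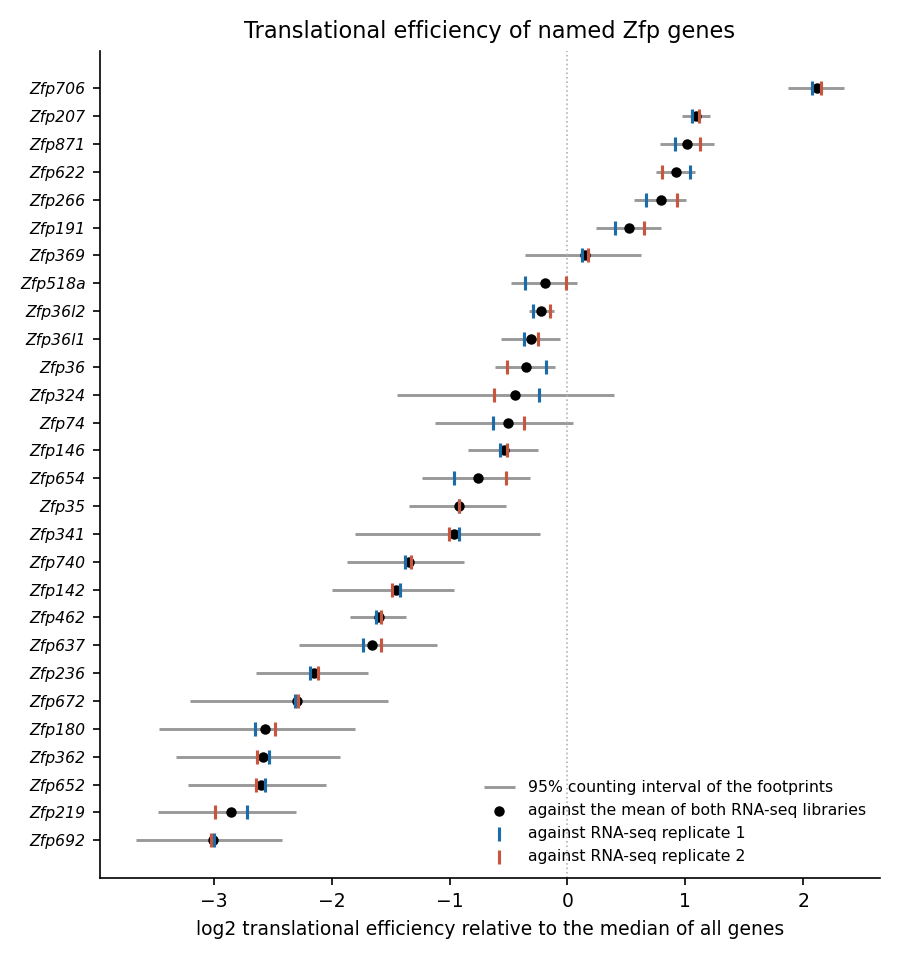
Log2 translational efficiency relative to the median of all genes for the 28 named Zfp genes with more than 3 footprints on the CDS. Black points use the mean of both RNA-seq libraries, coloured ticks use each RNA-seq library alone, and grey lines are 95% counting intervals of the footprints. The ticks lie closer together than the ends of the grey line in most genes, and the values run from -3.0 in Zfp692 to 2.11 in Zfp706.

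The genes with the most fingers had values under the median of all genes. Zfp142 with 36 fingers was at -1.45 (-2.0 to -0.96), Zfp462 with 33 fingers at -1.60 (-1.84 to -1.37) and Zfp236 with 30 fingers at -2.15 (-2.64 to -1.69). Their counted CDS were 5220, 7479 and 5397 nt long. Members with 10 or more fingers had a median of -0.88 and those with 3 to 9 fingers a median of -0.66. The 10 members without a C2H2 match were nearest to all genes, with a median of -0.26 and 2 below -1 (20%, against 21.7% of all genes). The 13 members with 1 or 2 fingers were spread most widely, with a median of -1.04 and an SD of 1.53, 7 of them below -1 (53.8%, against 21.7% of all genes) and 3 above 1 (23.1%, near the 19.3% of all genes). Those 3 were Zfp706, Zfp207 and Zfp593.

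The Zfp36 genes, whose products bind AU-rich mRNAs, were highly abundant and close to the median in TE. Zfp36 lies on chromosome 7 from 28376784 to 28380253, Zfp36l1 on chromosome 12 from 80107754 to 80113013 and Zfp36l2 on chromosome 17 from 84183931 to 84187947, all on the - strand. Footprints on the CDS were 131 in Zfp36, 135 in Zfp36l1 and 761 in Zfp36l2, or 38.6, 37.5 and 148 RPKM. Log2 TE was -0.35 (-0.61 to -0.11) in Zfp36, -0.31 (-0.56 to -0.06) in Zfp36l1, and in Zfp36l2 it was -0.22 (-0.33 to -0.12), or 1.82 against RNA-seq of the CDS. These 3 intervals overlapped. Against each RNA-seq library the value of Zfp36 was -0.18 and -0.52, as its RNA was higher in replicate 2. The value of Zfp36l2 depended on where its RNA-seq was counted, since replicates 1 and 2 had 4609 and 4785 counts on its 3′UTR but 510 and 975 on its CDS.

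Zfp36 proteins recruit the CCR4-NOT deadenylase, which shortens the poly(A) tails of their targets. All 11 genes of that complex examined were above 1 RPKM, Cnot9 under its older symbol Rqcd1, and their median log2 TE was -0.06. Of these 11 genes, 1 was below -1, Cnot6 at -1.41, and 1 was above 1, Rqcd1 at 1.2. Over all genes 21.7% were below -1 and 19.3% above 1. The scaffold Cnot1 was at -0.55 with 663 footprints, and the deadenylase genes Cnot7 and Cnot8 were at -0.87 and 0.43.

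Zfp genes with a KRAB A box had a median log2 TE of -0.50 (80 genes) and those without one -0.90 (108 genes), a difference of 0.40. The difference was 0.31 with replicate 1 alone, 0.43 with replicate 2 alone and 0.21 when counts were not divided by length. TE was below -1 in 27 of the 80 KRAB genes (33.8%) and in 50 of the 108 others (46.3%), against 21.7% of all genes. It was above 1 in 6 KRAB genes (7.5%) and in 4 others (3.70%), against 19.3% of all genes. The difference in medians was not seen in every subset. Between 45% and 55% GC in the CDS, the medians were -0.66 in 29 KRAB genes and -0.66 in 36 others. Under 45% GC they were -0.42 in 43 KRAB genes and -0.75 in 19 others, and from 55% GC upward they were -0.67 in 8 KRAB genes and -1.17 in 53 others. KRAB genes as a whole had a median GC content of 44.2%, against 54.4% in the others, and their part of shared sequence was larger. Among members with no shared window of 30 bases, the difference was 0.07, with 15 KRAB genes of 97. With 1000 summed RNA-seq counts it was 0.40, with 11 KRAB genes of 57. With 100 counts in every library it was 0.03, with 5 KRAB genes of 27, but that filter also selects on footprints, which are the numerator of TE. The parts of GC content, shared sequence and depth in the difference were not tested.

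Genes of the corepressor with which KRAB proteins work were also examined. All 13 were above 1 RPKM, with a median log2 TE of 0.32. Trim28, the protein that binds the KRAB box, was at 111 and 113 RPKM with 1445 footprints and a log2 TE of 0.20 (0.12 to 0.27). Setdb1, which methylates histone H3, was at -1.36 (-1.66 to -1.08), and the remodeller gene Chd3 at -1.61 (-1.85 to -1.38). These were the 2 genes of the list below -1, where 21.7% of all genes lay. The 5 above 1, where 19.3% of all genes lay, were Cbx3 (5.22), Cbx5 (3.21), Uhrf1 (2.64), Hdac1 (2.31) and Cbx1 (1.30). Counts rested on 25% of the annotated CDS in Cbx3 and 62.0% in Uhrf1, and Cbx3 had 35.5 and 43.4 RNA-seq counts, so both values are uncertain. Cbx3 is below the 200 counts required of the genes behind those shares.

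ATG triplets upstream of the CDS were frequent among the Zfp genes. They were counted in any frame in 1 annotated transcript per gene, and their use as start codons was not examined. At least 1 ATG stood in the annotated 5′UTR of 114 of 188 members (60.6%), against 49.4% of 9094 genes with an annotated transcript. The median annotated 5′UTR was 222 nt in the members and 171 nt over all genes. Members with an upstream ATG had a median log2 TE of -0.96, and those without one -0.43. Over all genes the medians were -0.29 and 0.19. The 37 members with 5 or more upstream ATG had a median of -1.04, against -0.51 over the 645 genes with as many. None of these members was above 1, against 11.3% of those genes and 5.32% of all members. Among KRAB genes the medians were -0.68 with an upstream ATG (49 genes) and -0.42 without (31 genes). Zfp genes without an upstream ATG had a lower median than all genes without one. Members with no annotated 5′UTR, such as Zfp654 (0 nt), were counted as without an upstream ATG. The part of upstream ATG in these values was not tested.

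Footprints on the 5′UTR made up a larger share in the Zfp genes than over all genes. Of the footprints on the members' transcripts, 9.55% lay on 5′UTRs, against 4.99% over all genes with 200 counts. In RNA-seq the 5′UTR held 5.36% and 6.15% of the members' counts in replicates 1 and 2, and 3.54% and 4.10% over all genes. At least 60 counted nt and 10 footprints on the 5′UTR, with 10 footprints on the CDS, were required to compare both regions in a gene. These minimums were met by 26 of 188 members. Of the 23698 genes listed, 2901 met them, all counted on their own and with no minimum on RNA-seq counts. Of the 26 members, 16 (61.5%) had footprints at a greater density in the 5′UTR than in the CDS. Over the 2901 genes, 25.3% did. The minimum on the 5′UTR favours genes with a dense 5′UTR where depth is low, as in the members, so part of this difference may come from the selection, which was not tested. The median log2 ratio of the densities was 0.37 in the 26 members and -0.89 over all genes. In RNA-seq, 1 of the 16 members had a higher density on the 5′UTR, Zfp672. Of the 16, 15 had an upstream ATG in the annotated 5′UTR, as did 21 of the 26. The exception was Zfp275, which is outside the rule for named genes and was chosen after its values were seen. The median number was 4 in the 16 and 3 in the other 10. Over all genes meeting the minimums, the 5′UTR was denser in 612 of 1729 with an upstream ATG (35.4%) and 114 of 1159 without (9.84%). In the members it was denser in 15 of 21 with an upstream ATG (71.4%) and 1 of 5 without (20%). Of these 5, Zfp869 has 706 counted nt of 5′UTR but 0 annotated nt, so no 5′UTR sequence was searched for ATG. In Zfp207, 58 nt are annotated and 176 nt were counted. Among the 16, Zfp64 has 108 annotated and 423 counted nt of 5′UTR, with 60.3% of its annotated CDS counted. Zfp869 and Zfp64 were chosen after their values were seen. With at least 30 footprints on the 5′UTR, 4 of 9 members remained above the CDS (44.4%), against 24.3% of 1083 genes. The median log2 ratio then changed sign to -0.12 in the members and was -1.01 over all genes.

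Among the 26 members that met the minimums, Zfp637 had the highest 5′UTR density relative to its CDS, with a log2 ratio of 2.74. It spans 117841180 to 117845956 of chromosome 6 (+ strand) and had 20.4 footprints on 97 nt of 5′UTR and 25.7 on 815 nt of CDS. Its RNA-seq ratio was -0.06. Zfp74, a KRAB gene, had a log2 ratio of 1.99 from 11.0 footprints on 220 nt of 5′UTR. Zfp672 was at 1.93, with 40 footprints on 1132 counted nt of 5′UTR and 13 footprints on the CDS. Zfp180 was at 1.62 and Zfp35 at 1.58, with 5 and 6 upstream ATG. These 5 genes had log2 TE values of -1.66, -0.51, -2.30, -2.56 and -0.92 in that order. In Zfp672 the annotated 5′UTR, with 13 upstream ATG, is 816 nt long, and 80% of the annotated CDS was counted. In Zfp180, 448 nt of 5′UTR were counted and 345 nt are annotated, with 78.5% of the annotated CDS counted. Whether their counted 5′UTRs hold annotated CDS was not examined, so both ratios are uncertain. At the other end were Zfp207 at -1.67 and Zfp706 at -1.35, which had the highest TE among the members with 1000 counts. Neither had an upstream ATG, though in Zfp207 the annotated 5′UTR is 58 nt long and 176 nt were counted. The next lowest, Zfp568 at -0.93, had 6 upstream ATG and was chosen after its values were seen. Footprints on the CDS enter both values, in the numerator of TE and the denominator of this ratio, so the values are not independent.

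**Figure D4:**
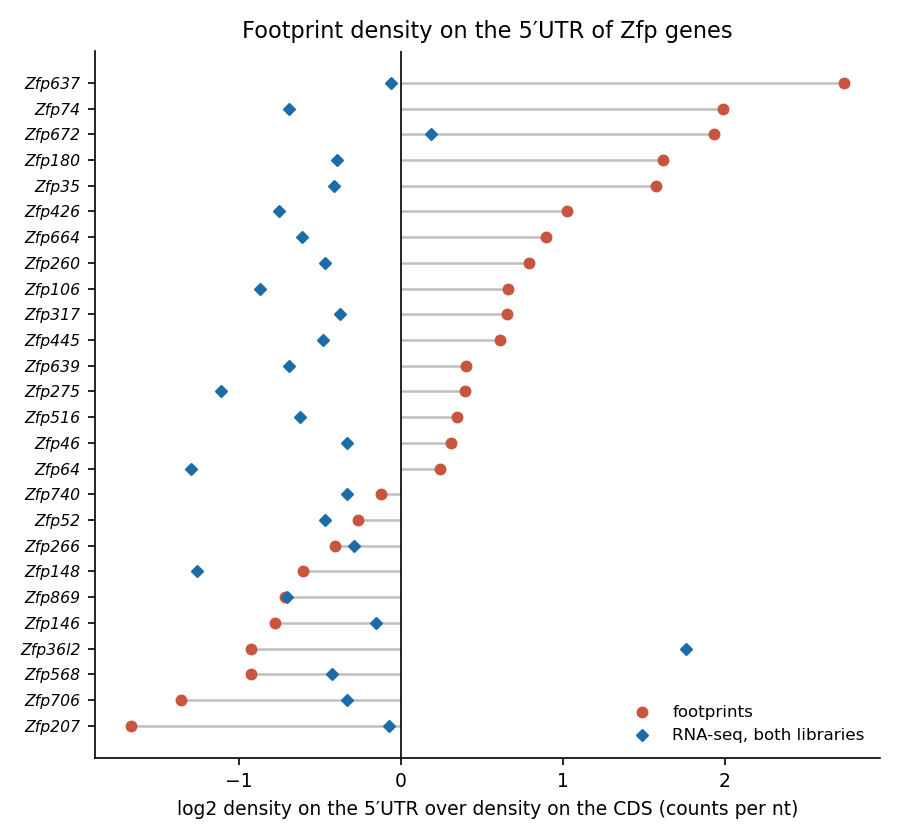
Log2 ratio of the density on the 5′UTR to the density on the CDS, in counts per nt, for the 26 Zfp genes with enough footprints on both regions. Red circles are footprints, and blue diamonds are RNA-seq counts of both libraries together. The circle lies to the right of 0 in 16 genes, up to 2.74 in Zfp637, while the diamond lies to the right of 0 in Zfp672 and Zfp36l2.

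The RNA-seq libraries were compared with each other over the Zfp genes. Whether they came from separate cultures is not given in the sources used here. No member differed by more than 1 on the log2 scale, and the log2 ratio of replicate 2 to replicate 1 ran from -0.49 to 0.57. It was negative in 113 of 188 members, and its median was -0.06 in the members and -0.01 over all genes with 200 counts. The 3 members with the largest differences among those with 1000 counts were Zfp386 (10.8 and 7.70 RPKM), Zfp654 (10.4 and 7.57 RPKM) and Zfp518a (6.90 and 5.37 RPKM), all higher in replicate 1. The ratio moved with base composition. Spearman's rho between it and the GC content of the CDS was 0.66 over 187 members and 0.66 over 9026 genes, which share these libraries. Below 45% GC the median log2 ratio was -0.23 in 62 members and -0.22 over 1119 genes. From 55% GC upward it was 0.11 in 61 members and 0.11 over 3359 genes. KRAB genes, with their lower GC content, had a median ratio of -0.16 and the other members -0.03. Zfp386 had 2.44 footprints on 286 counted nt, 15.2% of its annotated CDS, and its log2 TE of -2.29 has a counting interval from -4.92 to -0.59.

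**Figure D5:**
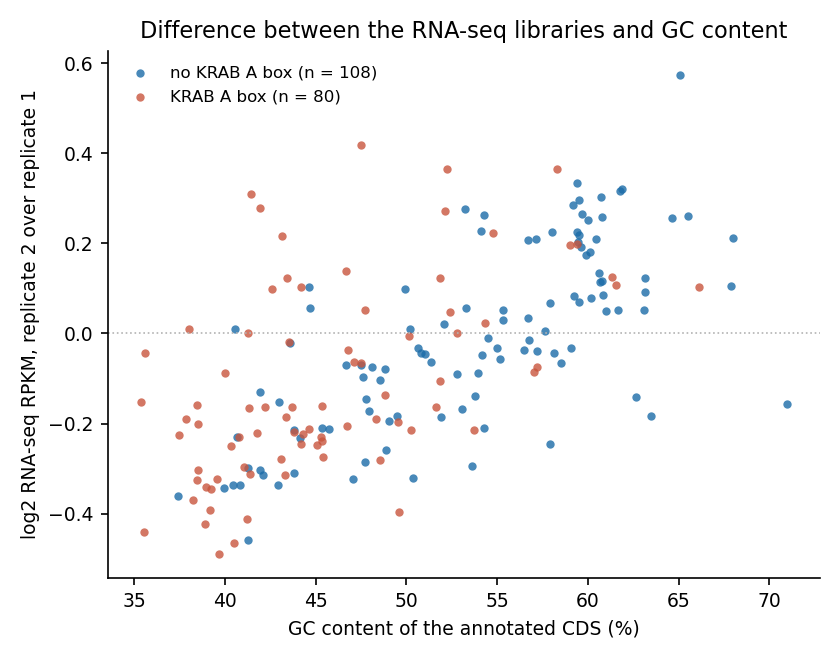
Log2 ratio of RNA-seq RPKM in replicate 2 to replicate 1 against the GC content (%) of the annotated CDS for the 188 Zfp genes. Each point is a gene, coloured by the presence of a KRAB A box. Points under 45% GC lie mostly below 0, with a median of -0.23, and points from 55% GC upward mostly above 0, with a median of 0.11.

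Zfp genes lie in clusters on several chromosomes. Chromosome 7 held 45 of the 188 members, 21 of them with a KRAB A box, and chromosome 17 held 20, of which 15 had one. The median log2 TE was -0.66 on chromosome 7 and -0.97 on chromosome 17. Other zinc finger genes with 200 RNA-seq counts were also compared. The 14 Zkscan and Zscan genes, which carry SCAN boxes, had a median log2 TE of -1.15, with 7 below -1 (50%, against 21.7% of all genes). The 32 Zbtb genes, in which C2H2 fingers follow a BTB domain, had a median of -0.37, with 10 below -1 (31.3%, against 21.7% of all genes) and 1 above 1 (3.13%, against 19.3%). The 9 Klf genes, which have 3 fingers at the carboxyl end, had a median of 0.01, with 2 below -1 (22.2%, near the share of all genes) and 3 above 1 (33.3%, against 19.3%). No gene named Znf with a number reached 200 counts. Median RNA-seq levels were 6.60 RPKM for the Zkscan and Zscan genes, 6.55 RPKM for the Zbtb genes and 27.8 RPKM for the Klf genes.

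Some Zfp genes are known from skin, imprinting and the silencing of viral DNA, and these were chosen after their values were seen. Zfp750, a factor of terminal keratinocyte differentiation, was at 9.30 and 10.9 RPKM with 51.8 footprints and a log2 TE of -0.89 (-1.31 to -0.49). Zfp445, a KRAB protein that maintains imprints, was at 37.4 and 32.3 RPKM with 243 footprints and a log2 TE of -0.93 (-1.12 to -0.75). Zfp809, a KRAB protein that silences retroviral DNA in embryonic stem cells, was at 16.8 and 15.0 RPKM, and its log2 TE of -0.10 had an interval that included 0 (-0.43 to 0.21). Zfp568, a KRAB repressor of a placental Igf2 promoter, was at 4.25 and 4.39 RPKM with a log2 TE of 0.88 (0.52 to 1.21). Zfp281, a factor of embryonic stem cells, was at 0.51 (0.22 to 0.78).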

How the data were processed

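Reads of the SCC libraries were trimmed with Trim Galore, aligned to GRCm38 with STAR 2.6.1, and, for ribosome profiling, filtered with Bowtie2 2.4.1, per the submitters' processing notes and the paper's methods. Estimated counts per gene and region, which need not be whole numbers, were made with Plastid and deposited by the authors without normalization. The RPKM values deposited by the authors were not used. Each count was instead divided by its counted length and by its library's total on exons to give RPKM anew, using Python 3.11.15, numpy 2.4.6, pandas 2.3.3 and scipy 1.17.1. The members and lists were chosen with earlier results of these data known. The mean normalized count came from counts rounded to whole numbers and median-of-ratios size factors.

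Features came from the longest coding transcript of GENCODE M21 per gene name. A C2H2 finger was a cysteine, 2 to 4 residues, a cysteine, 12 residues, a histidine, 3 to 5 residues and a histidine. A KRAB A box was called at 12 or more of 17 conserved positions. For 2 members the counted CDS was more than 5% longer than the annotated one. Genes were named by a fixed rule. It took the Zfp36 genes, the 6 most abundant members, and, among those with 1000 counts, the 6 highest and 6 lowest in TE and the 3 with the largest difference between replicates. It also took the 5 highest in 5′UTR density, the 3 on each side of the threshold, members with 0 footprints and the 3 with the most fingers. Plots were drawn with matplotlib 3.10.9. The calculation was tested on simulated data. Alternatives covered each RNA-seq library left out, other regions, filters, thresholds and scalings, and KRAB calls. The long-read libraries were not analysed here.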

Additional observations from a re-analysis of the deposited data

Results flagged for a closer look

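Footprints on 3′UTRs entered only the shares of footprints by region, and 38 members had more than 3 of them, the limit that a count of 0 allows. The 3 members with the highest counts are given first. Zfp120 had 213 footprints on 2752 nt of 3′UTR and 22.2 on its CDS, Zfp935 had 212 on 1310 nt and 13.7 on its CDS, and Zfp329 had 81 on 6250 nt and 9 on its CDS. The log2 ratio of 3′UTR to CDS density was 0.66 in Zfp120, 2.6 in Zfp935 and 1.17 in Zfp329. Zfp316 came next, with 64 footprints on 3517 nt of 3′UTR and 8.08 on 3051 nt of CDS, a higher ratio of densities than in these 3 genes. In Zfp120 only 34.7% of the annotated CDS was counted. In Zfp935, 94.1% of the 30-base windows of the CDS were shared with another gene. Over all members 8.19% of the footprints lay on 3′UTRs, and 5.08% without Zfp120 and Zfp935, against 1.84% over all genes with 200 counts. The 5′UTR share of the members was 9.55%, and 9.90% without these 2 genes. In RNA-seq the 3′UTR held 41.1% and 38.2% of the members' counts in replicates 1 and 2. Over all genes with 200 counts it held 27.7% and 25.6%. No replicate of ribosome profiling was analysed here, and the cause was not tested.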

How the results depend on the processing

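No paired analysis was possible because the ribosome profiling library carries no replicate number and no groups were tested against each other. The median log2 TE of the Zfp genes was negative under each alternative run, from -0.93 to -0.45, and was -0.76 to -0.73 with either RNA-seq library left out. Over the same libraries left out, the number below -1 was 76 to 78 (21.6% to 21.8% of all genes). The number above 1 was 10 to 11 (19.2% to 19.7% of all genes), and the KRAB difference was 0.31 to 0.43. The median was -0.65 with RNA-seq counted over the CDS, -0.73 without division by length, -0.67 with a pseudocount of 1 RPKM, -0.64 with at least 80% of the CDS counted, -0.65 with a threshold of 100 counts and -0.93 with a threshold of 1000. The number above 1 was 3 without division by length (17.7% of all genes) and 6 with the pseudocount (18.3%). With 100 counts in every library, 27 members remained, the median was -0.45, 6 were below -1 (15.7% of all genes), 2 were above 1 (18.8%) and the KRAB difference was 0.0302. That filter selects on footprints, the numerator of TE, and moved the median of all genes by 0.39, counting RNA-seq over the CDS moved it by -0.29 and leaving out length by -1.01, and values are relative to it. With 1000 summed counts, 28 of 57 members were below -1 (21.2% of all genes), 3 were above 1 (17.8%) and the KRAB difference was 0.40. The KRAB difference was 0.21 without division by length. Among the 97 members without a shared 30-base window, an alternative chosen after seeing the data, 40 were below -1 (21.3% of all genes), 5 above 1 (19.1%) and the KRAB difference was 0.0728. A KRAB score of 10 in place of 12, also chosen after seeing the data, left the difference at 0.40. For 5′UTR density, 4 of 9 members were above the CDS with 30 footprints (median -0.12; 24.3% of all genes) and 10 of 18 with 1000 summed counts (22.2% of all genes). Of 30 named members, 2 changed sign from a value beyond 1, Zfp706 to -1.15 and Zfp871 to -0.53 without division by length, and 9 moved by more than 1.5-fold under that setting, among them Zfp266 to 0.01, Zfp692 to -2.29, Zfp740 to -3.32 and Zfp386 to -5.28. Zfp207 was at 0.63 with RNA-seq counted over the CDS, 0.82 without division by length and 0.70 with 100 counts in every library. With RNA-seq counted over the CDS 3 moved by more than 1.5-fold, Zfp706 to 1.15, Zfp871 to 1.96 and Zfp36l2. Smaller values also changed sign, Zfp36l2 from -0.22 to 1.82 and Zfp518a from -0.19 to 0.09 with RNA-seq counted over the CDS, Zfp518a to 0.21 without division by length and Zfp369 from 0.15 to -0.24 with the median of the 100-count filter. With either RNA-seq library left out, 0 of 30 moved by more than 1.5-fold. Where a value moved otherwise, the cause was not tested. Depth also limits single genes, since 24 members had fewer than 10 footprints in the 1 ribosome profiling library.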
